A study of Homo sapiens and Pan troglodytes with 11 samples.

Results

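The neurons described here were sorted by how many guides could be called in each cell: none, 1, or 2 and more. They came from a screen of human accelerated regions, stretches of conserved DNA that changed fast on the human lineage, read by HyPR-seq, in which probes count a chosen panel of transcripts and the guide barcodes in single cells. Of 41950 cells in the 11 libraries of the series, the 9 libraries used here held 28876, and 25650 of these passed the filter on cells. A guide was called where its barcode, a column named Brainbar or SplintRbar, had at least 20 unique molecular identifiers (UMIs, tags that count molecules) and at least 20% of the guide UMIs of the cell. A cell was kept if it had at least 50 gene UMIs outside GAPDH, with GAPDH at most 80% of its gene UMIs. By this rule 5965 cells had no called guide, 15623 had 1, 3874 had 2 and 188 had 3, the most in any cell. The last 2 counts form the class with 2 or more guides.

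Per the labels, the cultures were excitatory neurons, 2 weeks old, derived from induced pluripotent stem cells and carrying CRISPR interference guides. Whether each cell barcode, among them those with no called guide, held a whole neuron was not tested. The 5 human libraries came from WTC11, an established human line, and the 4 chimpanzee libraries from C3649. Each species is thus represented by 1 line, and the labels do not say whether libraries are separate cultures, so p-values measure the spread between these libraries, which may be technical. Human 1 to 3 and chimpanzee 1 and 2 belonged to screen replicate 1 and were read with panel 1 of 10 genes. Human 4 and 5 and chimpanzee 3 and 4 belonged to screen replicate 2 and were read with panel 2 of 21 genes, so the replicate and the panel cannot be told apart. Libraries human 6 and chimpanzee 5 were left out by the rule. The names of the 28 barcodes, 7 Brainbar and 21 SplintRbar, show neither target nor control, and which guide each barcode stands for was not analysed here.

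In CRISPR interference a guide RNA brings a nuclease-dead Cas9, joined to a repressor, to its matching DNA, where activity is lowered. A pooled screen reads the guide of each cell from an expressed barcode. A cell with 1 guide shows the effect of 1 target, a cell with several guides mixes effects, and a cell with no guide, when it is a true cell, serves as a comparison within the same dish. In droplet assays an apparent cell can also be an empty droplet with free RNA, or a droplet with more than 1 cell. Per the labels' protocols, 2000 cells and 20000 barcoded beads went into each reaction, while the libraries used held 1199 to 5825 cell barcodes, and the labels do not say how many reactions made up a library.

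The classes differed in makeup between libraries, and among kept cells human 5 stood apart. In human 4, however, the filter on cells left out 1545 cells with no called guide and kept 175, against 273 and 1907 in human 5. No guide was called in 3.17% of the kept cells of human 2 (95% exact binomial interval 2.25 to 4.33%), 5.04% in human 3, 10.1% in human 1, 11.4% in human 4 and 46.9% in human 5 (45.3 to 48.4%). In chimpanzee libraries 1 to 4 the share was 9.50%, 32.8%, 27.6% and 18.3%. These intervals cover counting error only. Cells with 1 guide were the most numerous class in all 9 libraries, from 49.7% in human 3 to 81.3% in human 4. Cells with 2 or more guides made up 27.1%, 37.3% and 45.3% of human 1, 2 and 3 and 29.5% and 15.0% of chimpanzee 1 and 2. On panel 2 they made up 7.29% and 1.57% of human 4 and 5 and 12.1% and 7.48% of chimpanzee 3 and 4. Each of these 4 shares was below all 5 shares on panel 1, where the median cell of a class also had 921 to 1429 guide UMIs, against 148 to 508 on panel 2.

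**Figure D1:**
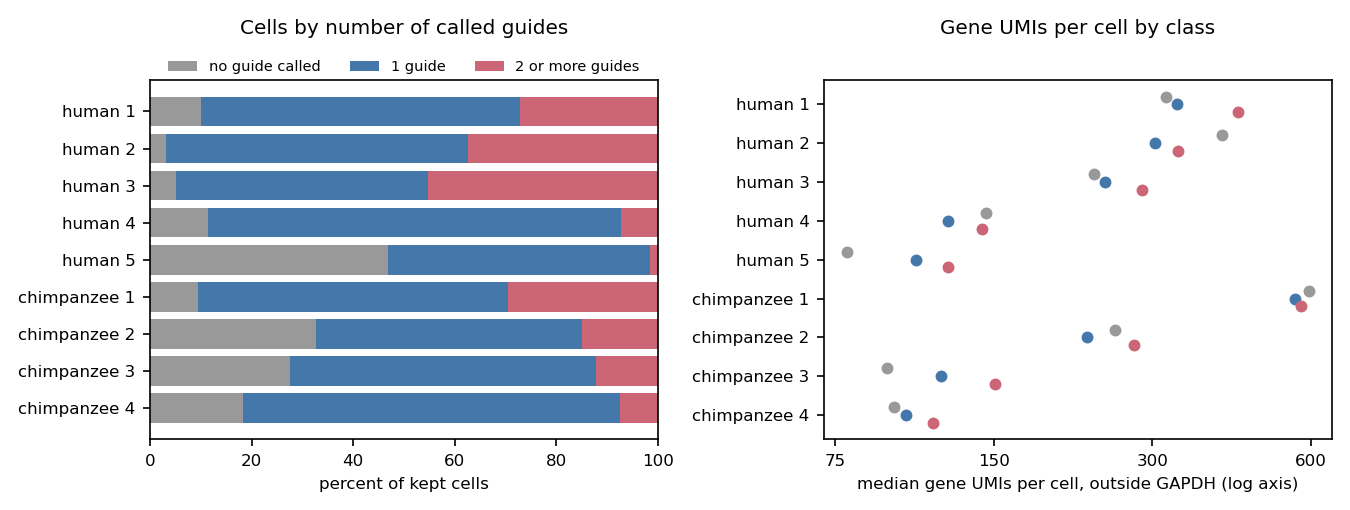
Left, the percent of kept cells with no called guide (grey), 1 guide (blue) and 2 or more guides (red) in each of the 9 libraries. Right, the median gene UMIs per cell outside GAPDH for each class on a log axis, from 79.0 in cells of human 5 with no called guide to 595 in those of chimpanzee 1; the red point lies to the right of the blue point in every library.

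A cell with no called guide was not a cell without guide UMIs. None of the 5965 such cells had 0 guide UMIs, and their median was 1031 to 1426 per cell on panel 1 and 148 to 294 on panel 2. Their UMIs were spread over many barcodes: the leading barcode took a median 9.33% (human 5) to 17.4% (human 2) of the guide UMIs, and 26 to 28 of the 28 barcodes had at least 1 UMI in the median cell. In cells with 1 guide the leading barcode took 48.5% (chimpanzee 1) to 77.9% (chimpanzee 2). In cells with 2 or more it took 36.9% to 44.2% and the second 24.2% to 27.04%. The rule itself orders these shares, so they carry no test. On panel 1 all cells with no called guide had a barcode with at least 20 UMIs and failed only on its share. On panel 2 this held for 69.7% of them in human 4, 21.97% in human 5, 32.3% in chimpanzee 3 and 60.9% in chimpanzee 4, and nearly all others failed on both criteria.

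The summed barcode profile of cells with no called guide followed that of the other cells of their library, with Pearson's r over the 28 barcodes of 0.582 in human 4, 0.831 to 0.914 in human 1, 2, 3 and 5 and 0.855 to 0.977 in the chimpanzee libraries. These points share library and depth, so r is a description. Near the threshold on the share, 398 kept cells had a leading barcode of 18% to under 20% with at least 20 UMIs, and 489 had 20% to under 22%. The median gene UMIs per cell of the first ran from 98 to 723 over the libraries and those of the second from 95 to 746.

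The filter on cells removed the classes unequally, most of all in human 4. It left out 2289 of the 3825 cells of human 4, or 59.8%. That was 89.8% of its cells with no called guide, 33.4% of those with 1 and 51.1% of those with 2 or more. GAPDH, the glycolytic enzyme used as a reference transcript, passed 80% of gene UMIs in 1712 cells of human 4 and in 2 to 9 cells of each other panel 2 library. Human 5 lost 11.9% of its cells, at 12.5%, 10.9% and 25.6% of those with none, 1 and several guides. Chimpanzee 4 lost 6.10% (1.17%, 7.52% and 3.12%), chimpanzee 3 lost 1.63% (0.126%, 2.57% and 0.287%), and the 5 libraries of panel 1 lost at most 0.547%.

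Cells of different libraries shared cell barcodes, which touches the class with no called guide most. A cell barcode here is 12 bases long, of which 16777216 are possible, yet 880 barcodes stood in human 4, human 5 and chimpanzee 3 at once, and chimpanzee 4 shared 1436 with the excluded library chimpanzee 5. Where a barcode had exactly 1 guide in each of a pair of these libraries, it was the same guide in 26 of 26 cases for human 4 and 5, 37 of 37 for human 4 and chimpanzee 3, and 23 of 23 for human 5 and chimpanzee 3. Such cases were few. Over all cell barcodes shared by these pairs, in the same order, the leading guide barcode agreed in 26.5% of 1060, 27.9% of 1003 and 23.4% of 995. Of 13 barcodes kept in all 3 libraries with both no guide and 1 guide among them, the first 2 in alphabetical order are printed because they show how 1 barcode falls into different classes.
cell barcode A: aacccaacaatt
cell barcode B: acatcacccgct
Barcode A was led by SplintRbar11 in all 3 libraries, with 77 UMIs and 25.8% of its guide UMIs in human 4, where it counted as 1 guide, 30 UMIs and 12.2% in human 5, and 25 UMIs and 12.3% in chimpanzee 3, where it counted as none. Barcode B was led by SplintRbar4 in all 3, with 32.6% in human 4, 26.3% in human 5 and 12.3% in chimpanzee 3.

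Shared barcodes made up 17.1%, 50.0%, 67.4% and 43.7% of the kept cells with no called guide in human 4, human 5, chimpanzee 3 and chimpanzee 4, against 2.56%, 1.76%, 1.83% and 33.5% of those with 1 guide. In the 5 panel 1 libraries no class exceeded 4.89%. In all, 3698 of the 25650 kept cells carried a barcode found in another of the 11 libraries. For BTG1 and AKAP6, shared cells with no called guide lay nearer to the other such cells of their library than to those of the other species, though not at the same level. BTG1, an antiproliferative factor, took 8.52% of gene UMIs in the shared cells of chimpanzee 3 with no called guide and 7.75% in its other such cells, but 3.21% and 2.82% in human 5 and 3.81% and 2.44% in human 4. AKAP6 took 14.8% in the shared and 19.2% in the other such cells of human 4, 16.7% and 19.3% in human 5, and 8.07% and 8.55% in chimpanzee 3. Among cells with no called guide, shared ones had fewer gene UMIs in 3 of 4 libraries, with medians of 67.0 against 150 in human 4, 64.0 against 106 in human 5 and 86.0 against 119 in chimpanzee 3, and more in chimpanzee 4, at 105 against 92.0. How barcodes came to be shared was not tested, and gene results are given with and without these cells.

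**Figure D2:**
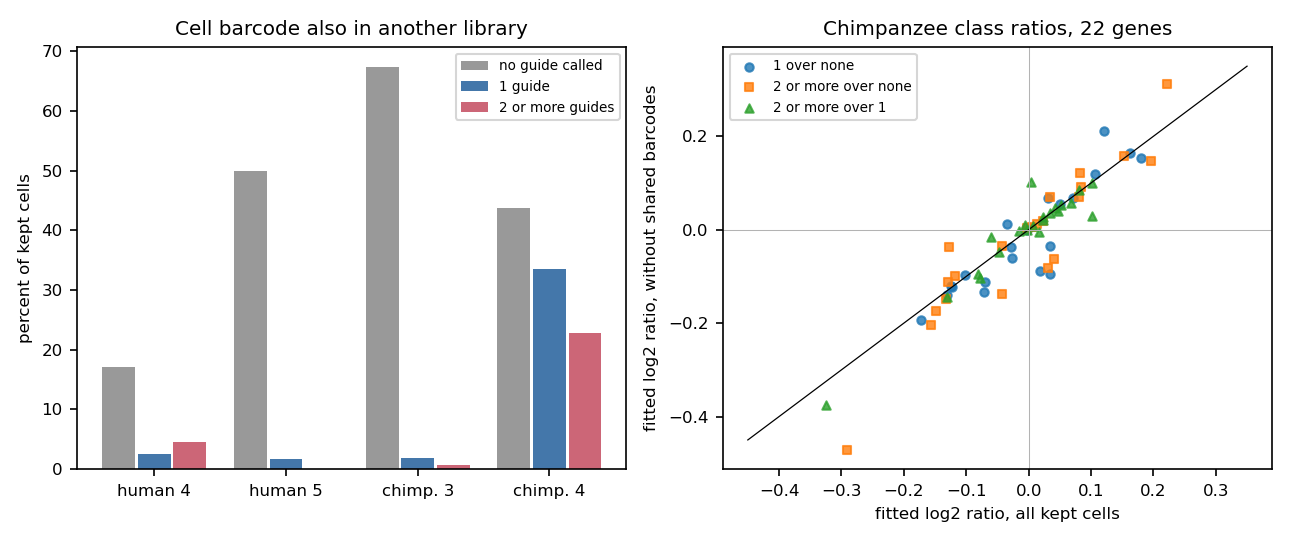
Left, the percent of kept cells of each class whose cell barcode is also found in another library, for the 4 panel 2 libraries, highest in cells of chimpanzee 3 with no called guide (67.4%). Right, chimpanzee class ratios of 22 genes with all kept cells (x axis) and without shared barcodes (y axis), both as fitted log2 ratios; the line marks equal values, and the lowest point on the y axis is ONECUT2 for several guides against none, at -0.29 and -0.47.

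Cells with 2 or more guides had more gene UMIs than cells with 1 guide in 9 of 9 libraries. The ratio of medians ran from 1.02 in chimpanzee 1 (574 against 561) to 1.31 in human 1 (437 against 334). The mean log2 ratio was 0.22 ± 0.11 (SD, n = 9), or 1.17-fold, with p = 0.00391 by a two-sided exact permutation test of sign flips over libraries, the smallest it can give, and 0.0117 adjusted over the 3 class contrasts. Within a species the smallest possible p is 0.0625 (human) and 0.125 (chimpanzee), and both were reached, at 0.24 ± 0.09 (SD, n = 5) and 0.21 ± 0.14 (SD, n = 4). Without shared barcodes the mean was 0.23, again in 9 of 9 libraries. A call needs 20 guide UMIs, so the depth of a cell enters both the class and this value. With calls at 40 UMIs and 30% the mean was 0.11 (exact permutation p = 0.0625), and with no filter on cells 0.073 (exact permutation p = 0.621). No doublet caller was run on panels of this size, and the part of droplets with more than 1 cell in this class was not tested.

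Cells with 1 guide did not differ in one direction from cells with none. The log2 ratio was above 0 in 5 of 9 libraries, from -0.42 in human 2 to 0.44 in human 5, with a mean of 0.01 ± 0.27 (SD, n = 9; exact permutation p = 0.945, adjusted 0.945). The median cell of human 5 had 107 gene UMIs with 1 guide and 79.0 with none, and that of chimpanzee 3 119 and 94.0. In human 2 the values were 304 and 408, the latter from only 38 cells. Without shared barcodes the mean was -0.11 and the highest library 0.06, so both large positive ratios depended on the shared cells. For 2 or more guides against none the mean was 0.23 ± 0.33 (SD, n = 9), above 0 in 6 of 9 libraries (exact permutation p = 0.0742, adjusted 0.111). Without shared barcodes this mean was 0.12, again above 0 in 6 of 9.

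Cells with several guides held many different pairs of barcodes. From 58.99% to 74.3% of all possible pairs occurred in the 5 panel 1 libraries and 59.5% in chimpanzee 3, but 40.2% in chimpanzee 4, 26.5% in human 4 and 15.6% in human 5, which had fewer such cells. The 825 such cells of chimpanzee 1 held 279 distinct sets of guides and 251 distinct pairs (66.4% of all possible), and its leading pair, SplintRbar10 with SplintRbar5, was found in 16 cells (1.94%). In human 5, with 64 such cells, 59 pairs were found. The leading pair of any library took at most 3.57% (Brainbar7 with SplintRbar11 in human 4). Pooled over the libraries of a species, 20.8% (SplintRbar2) to 50.2% (SplintRbar24) of the human cells carrying a given barcode carried another as well, with 38.8% over all barcodes. The value of SplintRbar2 rests on only 5 cells with several guides and 19 with SplintRbar2 alone. In chimpanzee the range was 20.4% (SplintRbar30) to 43.9% (SplintRbar4), with 32.1% over all. Each library's own share of cells with several guides enters these values, so they are descriptions. Every barcode was found alone in at least 1 cell of each library, except 1 of 28 in human 1.

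Gene composition was compared as each gene's share of the gene UMIs outside GAPDH, summed over the cells of a class in a library. The classes were chosen by guide UMIs, which the gene shares do not contain. Shares are relative: when 1 abundant gene takes more, the others take less. Fewer molecules per cell and fewer cells expressing a gene cannot be told apart in such sums. The genes of both panels rest on 5 human and 4 chimpanzee libraries, those of panel 1 alone on 3 and 2, and those of panel 2 alone on 2 and 2. In the last, the spread is borrowed from the other genes of the panel, and SEs are given as no smaller than counting error. The p-values use the fitted spread, which can lie below counting error, so a p-value need not match the SE beside it. Among the neuronal markers of panel 2, NRSN2, a neuronal vesicle membrane protein, took 3.85 to 6.03% of the gene UMIs over all classes and libraries, ONECUT2 1.63 to 6.79% and SCRT2, a zinc-finger transcriptional repressor of neural cells, 1.10 to 1.37%. DAZL, a germ cell RNA-binding protein, took 0.222 to 0.630%. With 3 neuronal markers and no markers of pluripotent cells measured, the panels test the labelled cell type only in part.

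In chimpanzee neurons, cells with called guides had a higher share of NRSN2 and a lower share of PLXNC1, a semaphorin receptor, and of PSMA6, a subunit of the proteasome core, than cells with none. Against none, cells with several guides also had a lower share of ONECUT2, a homeobox transcription factor of neuronal identity. The same held for AKAP6, an anchor of protein kinase A. They had a higher share of TENM3, a teneurin of synaptic contacts, and GLI2, a transcription factor of Hedgehog signalling. With 1 guide against none TENM3 and GLI2 had ratios of 0.11 and 0.12 without passing (edgeR adjusted p = 0.0745 and 0.0655). Neither passed for several guides against 1. The differences were small, at most 0.33 on the log2 scale. By edgeR's quasi-likelihood test with Benjamini-Hochberg adjustment over 23 genes and 3 contrasts, 4 of 23 genes (17.4%) passed 0.05 for 1 guide against none, 2 higher and 2 lower. For 2 or more against none 9 of 23 (39.1%) passed, 4 higher and 5 lower, and for 2 or more against 1, 3 of 23 (13.0%), 1 higher and 2 lower. DESeq2 called 2, 4 and 1 genes, and edgeR without chimpanzee 2 called 7 in the first contrast. The median log2 ratio over the 23 genes was -0.00, 0.00 and 0.01.

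**Figure D3:**
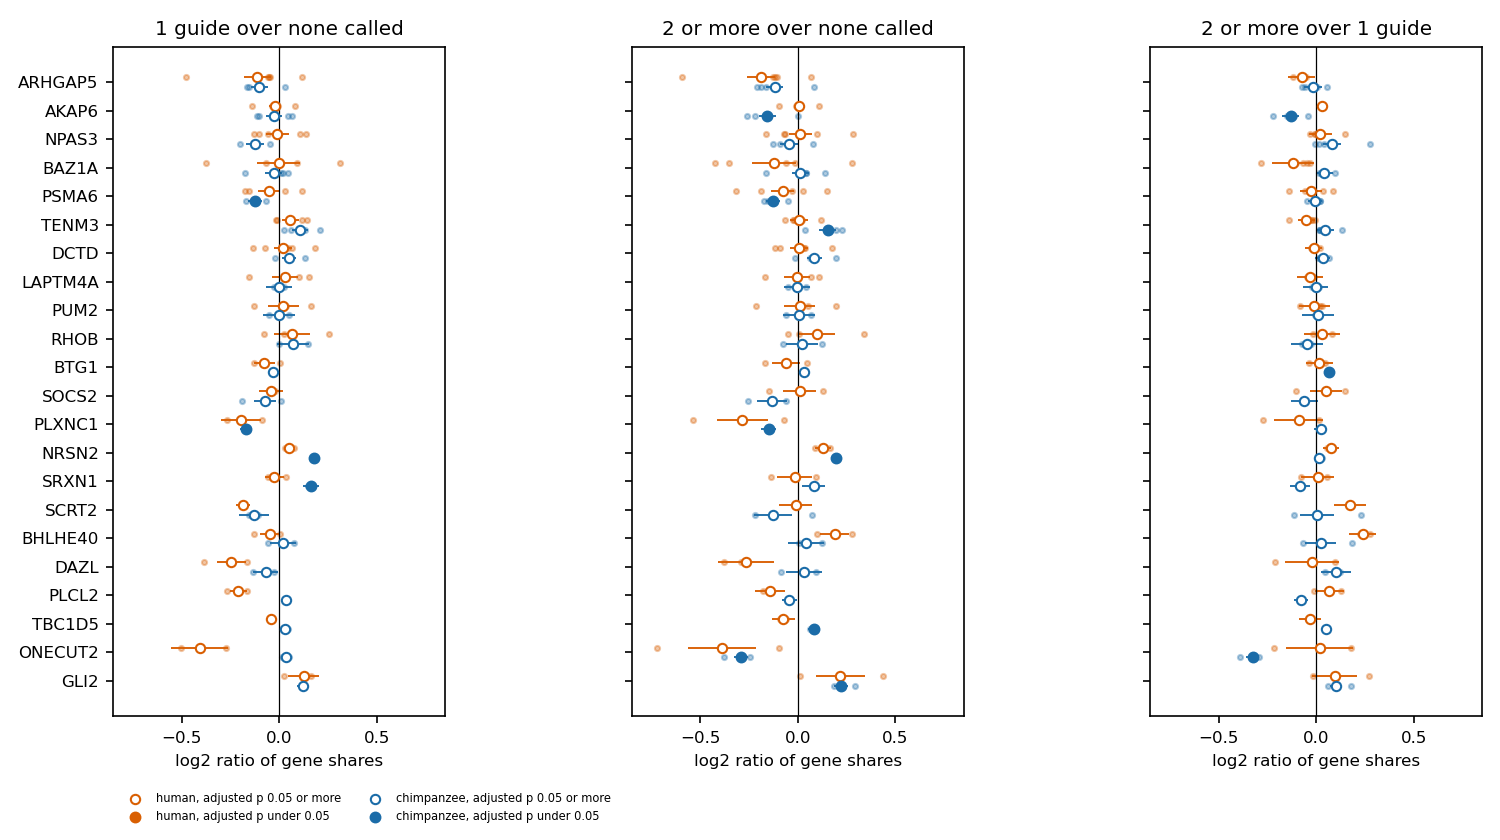
Log2 ratios of gene shares between classes for 22 genes, human in orange and chimpanzee in blue. Small points are single libraries, large points the fitted ratio with its SE, and filled points have an adjusted p under 0.05; all filled points are chimpanzee, and human ONECUT2 lies at -0.41 and -0.39 against cells with none without passing.

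In human neurons no gene passed the same test. Human 4 and 5 held only 112 and 64 cells with several guides, against 696 and 311 in chimpanzee 3 and 4. The counts of calls thus do not compare the species. The count was 0 of 23 (0.0%) in each of the 3 contrasts with edgeR's quasi-likelihood test, 0 with DESeq2 and 0 with limma, while 3, 2 and 2 genes had an unadjusted p under 0.05. The first 3 were SCRT2 (-0.19 ± 0.04, SE), PLCL2 (-0.21 ± 0.04) and DAZL (-0.24 ± 0.07), each lower in 2 of 2 libraries. Their edgeR adjusted p was 0.306, 0.354 and 0.392. SCRT2 was also lower with 1 guide in 2 of 2 chimpanzee libraries, at -0.13 ± 0.08 (adjusted p = 0.346). ONECUT2 took 5.33% and 6.79% of the gene UMIs of human 4 and 5 in cells with none, 4.41% and 4.79% in cells with 1 guide, and 4.99% and 4.12% in cells with 2 or more. For 1 guide against none its log2 ratio was -0.41 ± 0.15 (SE; adjusted p = 0.499), lower in 2 of 2 libraries, at -0.27 in human 4 and -0.50 in human 5. Where the call of a guide needed only 10 UMIs and 10%, 7, 8 and 1 human genes passed in the 3 contrasts. Only 3 of the 5 human libraries then had the 20 cells with none that a class needed. The contrasts with none thus rest on fewer libraries there. Relative to GAPDH 9, 8 and 0 of the 20 panel 2 genes passed in human neurons, all of them higher, and 0, 0 and 0 in chimpanzee neurons by edgeR, with 1, 6 and 1 at an unadjusted p under 0.05. The filter on cells, which used the GAPDH share beside gene UMIs, left out the classes unequally. In human 4 it left out 89.8% of cells with none and 33.4% of those with 1 guide. These counts thus rest in part on a value that chose the cells. GAPDH itself took 50.3% and 47.2% of all gene UMIs in cells of human 4 and 5 with none and 47.0% and 43.0% in those with 1 guide. Relative to GAPDH the median of all genes shifted by 0.18 and 0.21 in human and by -0.11 and -0.20 in chimpanzee for 1 and for 2 or more guides against none, so the directions given here are relative to the other genes measured.

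Among the 5 transcription factors, ONECUT2 and GLI2 passed in chimpanzee neurons, and NPAS3, BHLHE40 and SCRT2 in neither species. ONECUT2 (chromosome 18, 57.44 to 57.49 Mb on GRCh38) took 1.93% and 2.20% of the gene UMIs of chimpanzee 3 and 4 in cells with none, 1.99% and 2.22% in cells with 1 guide, and 1.63% and 1.70% in cells with 2 or more. Cells with several guides were thus the lowest in both libraries, by -0.33 ± 0.03 (SE; edgeR adjusted p = 0.0145) against 1 guide and -0.29 ± 0.04 (adjusted p = 0.0149) against none. For 1 guide against none the log2 ratio was 0.03 ± 0.03, higher in 2 of 2 libraries. Without shared barcodes it turned to -0.095 ± 0.089 (SE; edgeR adjusted p = 0.669), lower in 2 of 2. Without shared barcodes the ratios for several guides were -0.38 and -0.47, lower in 2 of 2 libraries, with edgeR adjusted p of 0.109 and 0.0783.

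GLI2 (chromosome 2, 120.7 to 121.0 Mb) took 1.90%, 2.08% and 2.17% in chimpanzee 3 for none, 1 and several guides, and 1.70%, 1.84% and 2.08% in chimpanzee 4. GLI2 is also a marker of neural progenitors and glia, and no other such marker was measured. Its order was the same in both libraries, and the ratio of several guides to none was 0.22 ± 0.03 (SE; edgeR adjusted p = 0.0268), and 0.048 relative to GAPDH. In human neurons the same ratio was 0.22 ± 0.12 (adjusted p = 0.586), from 0.01 in human 4 to 0.44 in human 5. NPAS3, a neuronal basic helix-loop-helix factor, took less of the gene UMIs of cells with 1 guide than of cells with none in 4 of 4 chimpanzee libraries, at -0.12 ± 0.05 (SE; edgeR adjusted p = 0.0524). In human libraries its ratio was below 0 in the 3 of panel 1 (-0.13 to -0.06) and above 0 in the 2 of panel 2 (0.10 and 0.14).

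Of the 4 surface and membrane genes, NRSN2 rose and PLXNC1 fell in both comparisons with cells with none. NRSN2 (chromosome 20, 0.3468 to 0.3597 Mb) took 3.85%, 4.37% and 4.39% of the gene UMIs of chimpanzee 3 with none, 1 and several guides, and 4.29%, 4.85% and 4.96% in chimpanzee 4. The log2 ratio to cells with none was 0.18 ± 0.02 (SE) for 1 guide and 0.20 ± 0.02 for several, both with an edgeR adjusted p of 0.00409, and 0.02 ± 0.02 between several and 1. Relative to GAPDH the ratios to cells with none were 0.079 and 0.0033. In human neurons NRSN2 was higher in 2 of 2 libraries in both comparisons, at 0.05 ± 0.03 and 0.13 ± 0.04 (adjusted p = 0.53 and 0.392). PLXNC1 (chromosome 12, 94.15 to 94.31 Mb) took 1.497% in cells with none and 1.33% in cells with 1 guide of chimpanzee 3, and 1.49% and 1.33% in chimpanzee 4. Its log2 ratio was -0.17 ± 0.03 (SE; edgeR adjusted p = 0.00409) for 1 guide and -0.15 ± 0.04 (adjusted p = 0.00691) for several. The latter did not pass without shared barcodes, at -0.17 (adjusted p = 0.0729), nor with the spread not allowed below counting noise (adjusted p = 0.0866). In human neurons PLXNC1 was also lower in 2 of 2 libraries in both comparisons. Its human ratios were -0.20 ± 0.10 and -0.29 ± 0.13 (SE; edgeR adjusted p = 0.53 for each).

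TENM3 (chromosome 4, 182.1 to 182.8 Mb) is on both panels and was higher in cells with several guides than in cells with none in 4 of 4 chimpanzee libraries. Its share went from 9.93 to 10.2% in chimpanzee 1, from 9.31 to 10.7% in chimpanzee 2, from 14.3 to 16.8% in chimpanzee 3 and from 16.3 to 18.1% in chimpanzee 4. The log2 ratio was 0.15 ± 0.04 (SE; edgeR adjusted p = 0.0149), and relative to GAPDH, in the panel 2 libraries, -0.0075. For 1 guide against none it was 0.11 ± 0.04 (adjusted p = 0.0745), also higher in 4 of 4. In human libraries the ratio for several guides ran from -0.06 to 0.12, above 0 in 2 of 5. LAPTM4A, a lysosomal membrane protein, had fitted ratios between -0.03 and 0.03 in every contrast of both species and did not pass.

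**Figure D4:**
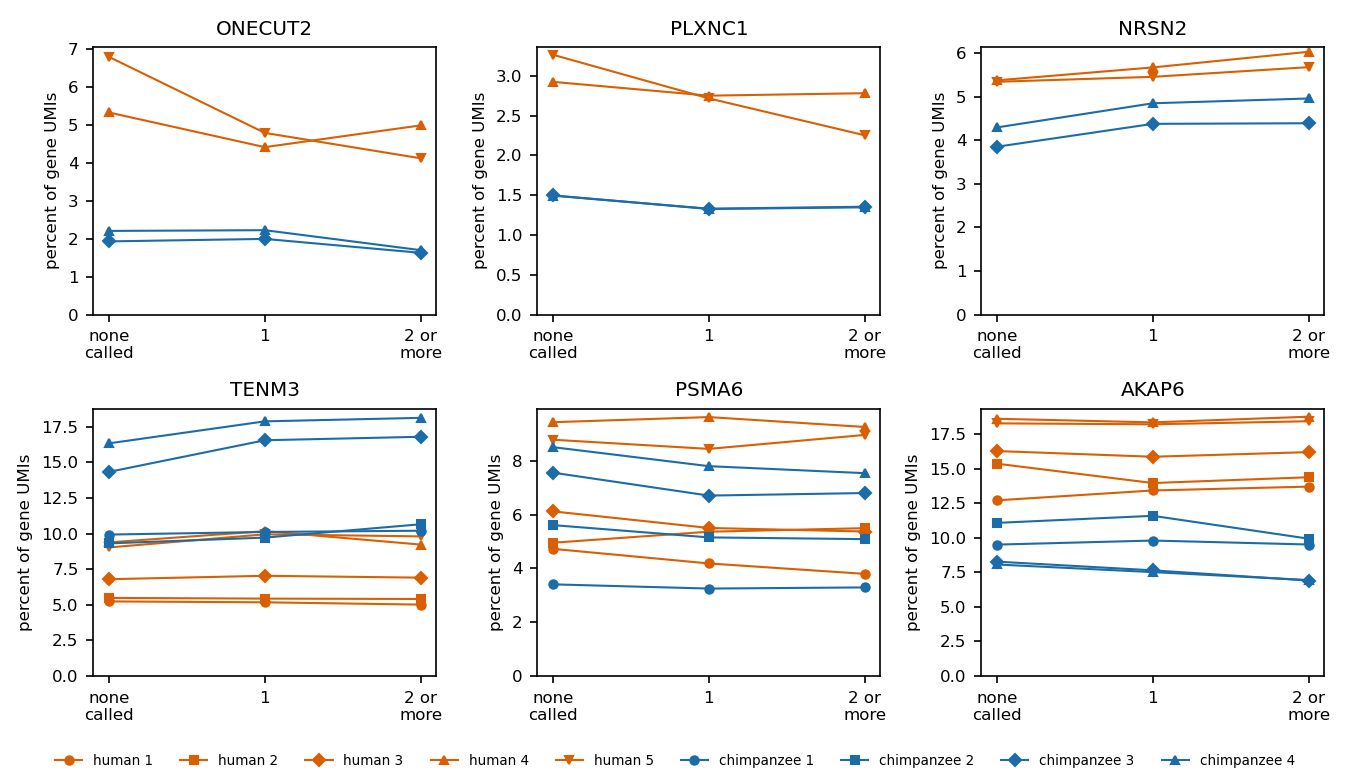
Share of gene UMIs outside GAPDH taken by 6 genes in cells with no called guide, 1 guide and 2 or more guides, 1 line per library, human in orange and chimpanzee in blue. ONECUT2, PLXNC1 and NRSN2 are on panel 2 alone; chimpanzee PSMA6 is lower with 1 guide than with none in all 4 libraries.

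Among the 4 genes of enzymes and complexes, PSMA6 fell and SRXN1 rose in chimpanzee neurons, and DCTD and BAZ1A did not pass. PSMA6 (chromosome 14, 35.28 to 35.32 Mb) took 3.41, 5.61, 7.56 and 8.51% of the gene UMIs in cells of chimpanzee 1 to 4 with none, and 3.25, 5.15, 6.71 and 7.80% in those with 1 guide. It was lower in all 4 libraries, by -0.12 ± 0.04 (SE; edgeR adjusted p = 0.0159) with 1 guide and -0.13 ± 0.04 (adjusted p = 0.0149) with several. In human libraries the ratio for 1 guide ran from -0.18 in human 1 to 0.11 in human 2. SRXN1, an antioxidant enzyme (chromosome 20, 0.6466 to 0.6534 Mb), took 0.569% and 0.641% in chimpanzee 3 and 0.584% and 0.648% in chimpanzee 4 with none and with 1 guide, a log2 ratio of 0.16 ± 0.04 (edgeR adjusted p = 0.0145). For several guides it was 0.08 ± 0.06 (adjusted p = 0.346). DCTD, a deaminase of nucleotide synthesis, had ratios of 0.05 ± 0.04 and 0.08 ± 0.04. BAZ1A, a subunit of chromatin remodellers, had -0.03 ± 0.04 and 0.01 ± 0.04, with chimpanzee 1 at -0.18 and the other 3 libraries at 0.01 to 0.04 for 1 guide.

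Of the 6 signalling and cytoskeletal genes, AKAP6 fell and TBC1D5, a regulator of endosomal trafficking, rose in chimpanzee cells with several guides. AKAP6 (chromosome 14, 32.33 to 32.84 Mb) took 9.50, 11.1, 8.27 and 8.06% of the gene UMIs of chimpanzee 1 to 4 with none, 9.79, 11.6, 7.64 and 7.51% with 1 guide and 9.51, 9.93, 6.90 and 6.94% with several. It was lower with several guides than with 1 in 4 of 4 libraries, at -0.13 ± 0.04 (SE; edgeR adjusted p = 0.0295), and lower than with none in 3 of 4, at -0.16 ± 0.04 (adjusted p = 0.0149). For 1 guide against none, the panel 1 libraries had 0.04 and 0.07 and the panel 2 libraries -0.11 and -0.10. TBC1D5 had a ratio of 0.08 ± 0.03 (edgeR adjusted p = 0.0295) for several guides against none, which was -0.11 relative to GAPDH. In human neurons this TBC1D5 ratio was -0.07 ± 0.06 (adjusted p = 0.586), lower in 2 of 2 libraries. ARHGAP5, a GTPase-activating protein, had -0.10 ± 0.04 and -0.12 ± 0.05 against cells with none and did not pass (adjusted p = 0.09 and 0.0631). RHOB, a small GTPase, SOCS2, a suppressor of cytokine signalling, and PLCL2 did not pass in any contrast either.

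Of the 3 genes of RNA binding and growth control, BTG1 had a higher share with several guides than with 1 in chimpanzee neurons, at 0.07 ± 0.01 (SE; edgeR adjusted p = 0.0215), from 7.97 to 8.38% in chimpanzee 3 and from 7.37 to 7.71% in chimpanzee 4. Relative to GAPDH this ratio was -0.025. PUM2, a translational repressor, had chimpanzee ratios between -0.00 and 0.01, and DAZL between -0.07 and 0.10.

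Fewer genes passed without shared barcodes, and others passed with another estimate of spread. Without shared barcodes 3 of 23 chimpanzee genes (13.0%) passed for 1 guide against none, NRSN2, PLXNC1 and PSMA6. For several against none 4 of 23 (17.4%) passed, AKAP6, NRSN2, PSMA6 and TENM3, and for several against 1, 0 of 23 (0.0%; 2 with an unadjusted p under 0.05 by edgeR). In human neurons edgeR again called 0 in each contrast, with 3, 1 and 2 genes at an unadjusted p under 0.05. The genes named here that lost a call kept their direction. Beside ONECUT2, given above, the ratios were 0.31 ± 0.10 (SE) for GLI2, -0.17 ± 0.05 for PLXNC1 and 0.12 ± 0.04 for TBC1D5 (several against none), 0.16 ± 0.09 for SRXN1 (1 against none), and -0.14 ± 0.05 for AKAP6 and 0.06 ± 0.03 for BTG1 (several against 1). With the spread not allowed below counting noise, 6 of 23 (26.1%), 5 of 23 (21.7%) and 1 of 23 (4.35%) passed in chimpanzee. Among the 6 were ARHGAP5, NPAS3 and TENM3 for 1 guide against none, which had not passed before. NRSN2 and PSMA6 against none, PLXNC1 for 1 guide against none, and TENM3 for several against none passed under both, while SRXN1, TBC1D5, BTG1, PLXNC1 for several against none and AKAP6 for several against 1 passed under neither. Leaving out chimpanzee 3 or chimpanzee 4 left the genes of panel 2 alone untested and 0 calls by edgeR among the 10 others in each contrast, with 1 to 3 at an unadjusted p under 0.05.

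The species were compared over the 7 genes on both panels. The ratio of several guides to none for AKAP6 was 0.16 ± 0.05 (SE) higher in human than in chimpanzee libraries, and that of several to 1 also 0.16 ± 0.05 higher, both with an adjusted p of 0.0345 by edgeR's test of the interaction. These were 2 of 21 tests (9.52%). Human AKAP6 was higher with several guides than with 1 in 5 of 5 libraries, by 0.02 to 0.04, and chimpanzee AKAP6 lower in 4 of 4, by -0.22 to -0.04. Without shared barcodes the differences were 0.19 ± 0.06 and 0.17 ± 0.06, and neither passed (edgeR adjusted p = 0.0775). Leaving out 1 library at a time, the first passed only without chimpanzee 1 (adjusted p = 0.000359) or human 2 (0.0366), and the other only without chimpanzee 1 (0.00119). TENM3 came next, at -0.15 ± 0.06 (adjusted p = 0.0938).

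Among cells with 1 guide, those with a Brainbar barcode were compared with those with a SplintRbar barcode. Brainbar cells made up 19.0% (human 3) to 30.0% (chimpanzee 3) of them. RHOB was the 1 of 23 chimpanzee genes (4.35%) to pass, with a log2 ratio of -0.04 ± 0.01 (SE; edgeR adjusted p = 0.0167). RHOB is on panel 1 alone, so this rests on chimpanzee 1 and 2. In human neurons 0 of 23 (0.0%) passed edgeR's test, with 5 at an unadjusted p under 0.05, led by ONECUT2 at -0.15 ± 0.04 (adjusted p = 0.0533).

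Cells of a class also varied among themselves. When each cell was thinned to 50 gene UMIs, ONECUT2 was detected in 91.8% of the cells of human 5 with no called guide (95% exact interval 90.4 to 93.0%) and in 73.2% of those with 1 guide (71.3 to 75.1%). In human 4 the values were 82.9% and 66.0%, in chimpanzee 3 55.6% and 46.2%, and in chimpanzee 4 53.4% and 46.4%. Unthinned, they were 96.4% and 88.3% in human 5, 92.0% and 81.2% in human 4, 76.5% and 70.2% in chimpanzee 3, and 74.2% and 66.7% in chimpanzee 4. DAZL, which neurons should lack, was detected at the thinned depth in 20.7% and 18.5% of the same cells of human 5 and in 10.7% and 10.8% of those of chimpanzee 3. Without shared barcodes the thinned values were 88.04% and 72.8% in human 5, 80.7% and 65.5% in human 4 and 54.8% and 45.1% in chimpanzee 4. In chimpanzee 3 they were 49.9% (45.5 to 54.3%) and 45.97% (44.3 to 47.7%), with overlapping intervals. These intervals cover counting error only.

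The spread over cells was measured as the variance of a gene over its mean at 50 UMIs. A draw from 1 common mix of transcripts gives 1 minus the share of the gene, so near 1 for rare genes and less for abundant ones such as RHOB and PUM2. ONECUT2 had 1.58 in cells of human 5 with none and 2.96 in those with 1 guide, 1.78 and 2.99 in human 4, 1.63 and 2.81 in chimpanzee 3, and 2.42 and 2.86 in chimpanzee 4. Without shared barcodes these values were 2.18 and 2.97, 1.91 and 3.02, 2.69 and 2.83, and 2.77 and 3.14. The median over genes was higher with 1 guide than with none in 8 of 9 libraries, all but human 3, and lower with several guides than with 1 in 8 of 9, all but human 2. The largest difference was in chimpanzee 2, a library with few shared barcodes, at 0.925 with none, 1.49 with 1 and 1.27 with several, and 10 of its 10 genes were higher with 1 guide than with none. Without shared barcodes the medians of human 5 went from 1.08 and 1.23 to 1.17 and 1.23, those of chimpanzee 3 from 1.01 and 1.21 to 1.17 and 1.20, and 7 of 9 libraries had the higher median with 1 guide. This measure was chosen after its values were seen and carries no test.

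**Figure D5:**
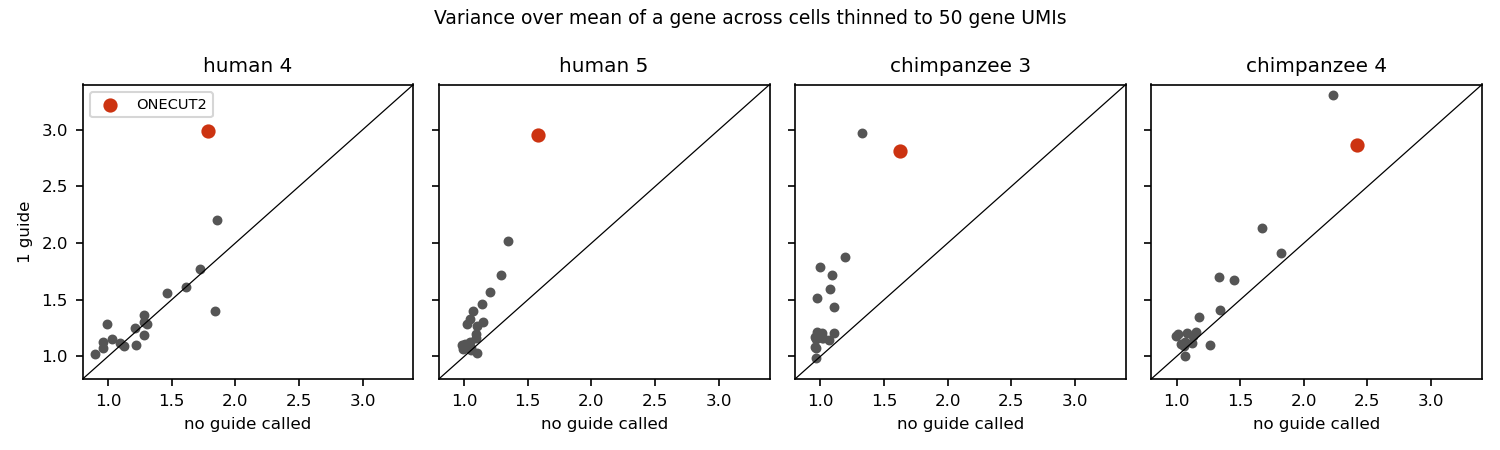
Variance over mean of each gene across cells thinned to 50 gene UMIs, cells with no called guide on the x axis and cells with 1 guide on the y axis, for the 4 panel 2 libraries. The line marks equal values and ONECUT2 is red, at 1.58 and 2.96 in human 5; most points lie above the line in human 5 and chimpanzee 3.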

How the data were processed

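The deposited tables hold whole-number counts of UMIs per cell barcode, per the file headers. For the reads, fastp, UMI-tools, Bowtie, SAMtools and hg38 are listed without roles in the submitters' processing notes, and how cell barcodes were kept is not given in the sources used here. Gene positions are from GENCODE on GRCh38. No pair of libraries of a species and panel matched within sampling noise (lowest chi-square over its degrees of freedom 28.9), so each was counted once.

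Here counts were summed per library and class. A class needed 20 cells in a library and a gene 10 UMIs in at least 50% of the sums. The test was edgeR 4.0.16 in R 4.3.3 (quasi-likelihood, legacy method, common dispersion), with the library as a block, since its classes share that library, and summed gene UMIs outside GAPDH as library size. SEs are the larger of the fitted and the counting SE, whereas p-values use the fitted spread. Alternatives used DESeq2 1.42.0 and limma 3.58.1. The test was tried on simulated data. The 9 libraries held 276953 to 1818477 gene UMIs. All panel genes are named, with full values for those past 0.05 in any class contrast and for the 7 on both panels. Classes, lists and tests were chosen with earlier results of these data known. 1 gene of panel 2 was counted but is not reported here.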

Additional observations from a re-analysis of the deposited data

Results flagged for a closer look

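In groups of 4 or 5 libraries, 60 values were searched for a library far from the rest of its species, and 7 stood out, where chance alone marks about 1 in 20. The 60 values depend on each other, since the 3 contrasts of a gene share their classes, so this count carries no test. The share of kept cells with no called guide was 46.9% in human 5, against 3.17 to 11.4% in the other 4 human libraries. The filter on cells had left out 89.8% of such cells in human 4 and 12.5% in human 5. The median leading share of cells with 1 guide was 77.9% in chimpanzee 2, against 48.5 to 53.4% in the other 3. For several guides against 1, the log2 ratio of BAZ1A was -0.28 in human 3, against -0.10 to -0.03. In chimpanzee 2 the ratio of several guides to 1 was 0.28 for NPAS3 and 0.13 for TENM3, against -0.01 to 0.04 and 0.01 to 0.02 in the other 3, and that of several guides to none was 0.085 for ARHGAP5, against -0.21 to -0.16. In chimpanzee 1 the ratio of 1 guide to none was -0.18 for BAZ1A, against 0.01 to 0.04. The class ratio of AKAP6 differed between the species by 0.16 for several guides against none and by 0.16 for several against 1 (edgeR adjusted p = 0.0345 for each).

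The excluded libraries also held cells with a called guide, 109 of 7562 kept cells (1.44%) in human 6 and 670 of 5511 (12.2%) in chimpanzee 5. A count of 0 would allow up to 0.0397% and 0.0544%. Their median leading share with 1 guide was 30.6% and 28.5%, below every library used.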

How the results depend on the processing

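The 9 libraries are the limit, with 2 per species for the genes of panel 2 alone.

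The 3 contrasts are given in the order 1 against none, several against none, several against 1. Chimpanzee calls (4, 9 and 3) became 2, 4 and 1 with DESeq2, 0, 0 and 0 relative to GAPDH, and 0, 0 and 0 in panel 1 libraries alone. With no replicate block, where the classes of a library are not paired, they were 1, 1 and 0 and the species comparison 0, and no human count changed. They were 9 for the first contrast with the newer edgeR default, 8 for it in panel 2 libraries alone, and 5 for the last with limma. They were 2 for the second with calls at 40 UMIs and 30%, 4 and 0 for the second and the last within the middle 50% of cells by gene UMIs, and 4 and 1 for cells thinned to 50 UMIs. Among the alternatives chosen after seeing the data, they were 4 and 0 without shared barcodes and 5 and 1 with the spread not below counting noise. Leaving out 1 chimpanzee library gave 0 to 7, 0 to 10 and 0 to 3. Human calls (0, 0 and 0) became 9, 8 and 0 relative to GAPDH, 7, 8 and 1 with calls at 10 UMIs and 10%, 6, 1 and 1 with no filter on cells, 2 and 2 for thinned cells, 1 for the first contrast at 40 UMIs and 30%, and 1 for it in the middle 50%, and stayed 0 without any 1 human library. The filter on cells had used the GAPDH share. At 10 UMIs and 10% only 3 human libraries had enough cells with none.

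The 2 species differences became 0 with TMM factors, both other call thresholds, the middle 50%, thinned cells, panel 1 alone and no shared barcodes, 1 with no filter on cells and 6 in panel 2 alone; leaving out 1 library gave 0 to 3. The chimpanzee Brainbar call became 0 with TMM factors and both other thresholds, and was 0 to 1 without 1 library. Relative to GAPDH, TBC1D5 and TENM3 (several against none) turned to -0.11 and -0.0075, and BTG1 (several against 1) to -0.025, also -0.016 at 40 UMIs and 30%. Over these alternatives, called genes kept call and direction in 160 values and lost the call in 107. Without 1 library they kept it in 34 and lost it in 26. The 34 include genes on panel 1 or panel 2 alone, where the library left out was of the other panel. Their fits did not hold that library, so those kept calls are no check. All 26 losses were in AKAP6, PSMA6 and TENM3, which are on both panels. The cause of these changes was not tested.

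For gene UMIs per cell, the mean log2 ratio of 1 guide to none turned to -0.086 at 40 UMIs and 30%, -0.11 in panel 1 alone and -0.11 without shared barcodes, and was -0.047 to 0.061 without 1 library. By unadjusted p, several against none passed at 10 UMIs and 10% (0.52; exact permutation p = 0.0312) and with no filter on cells (0.28; exact permutation p = 0.043), was -0.041 at 40 UMIs and 30%, and was 0.18 to 0.30 without 1 library, passing without human 2. Several against 1 no longer passed at 40 UMIs and 30% (0.11) or with no filter on cells (0.073), nor in panel 1 (0.22) or panel 2 alone (0.23), where too few libraries remain to pass. Cells of the middle 50% by gene UMIs are alike in this measure by construction, so their values (0.10 for several against none, 0.041 for several against 1) say nothing of it.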
